A study of Medicago truncatula with 9 samples.

Results

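The stored transcripts described here are those of mature dry seeds of wild-type Medicago truncatula R108, a line of barrel medic, the model forage legume. They were taken as the 3 R108 libraries out of the 9 libraries of the series, and the values of the transcript models were summed for each of 36695 loci. The other 6 libraries come from hsfa9-1 and hsfa9-2 insertion lines and were not used. Each R108 library came from 50 seeds of different plants, grown with 16 h of light at temperatures given as 20 and 19 °C. The pods dried down at a relative humidity of 43%, and their seeds were then stored at 20 °C until RNA was taken. The RNA was enriched for mRNA, copied with random primers and sequenced as 50 bp reads on the BGISEQ-500 platform, with 24 M reads per library on average, per the labels. Seeds were ground as lots and no dissection is described, so embryo, endosperm and seed coat are taken as measured together, and fewer cells of a type cannot be told apart from less RNA per cell. The unit is FPKM, fragments per kilobase of transcript and per 1 M mapped fragments, so levels of different genes are compared per length. A share is the percent of a library's summed FPKM, which counts transcripts rather than RNA mass.

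A legume embryo fills its cotyledons with storage proteins, oil and oligosaccharides, and then makes protective proteins and sugars before it dries. The dry seed keeps a pool of mRNA, in part left from maturation and in part used when the seed takes up water. Late embryogenesis abundant (LEA) proteins, dehydrins and small heat shock proteins are known from this last phase, and raffinose family sugars build up beside sucrose.

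The dry seed held transcripts of many loci at low levels and of few at very high ones. Of the 36695 loci, 16564 (45.1%) had a mean of at least 1 FPKM, 13320 lay above 0 but under 1 FPKM, and 6811 (18.6%) were listed at 0 in every library. Counts given below for a class or list are to be read beside these shares of all loci. The 3 libraries had 16606, 16565 and 16598 loci at or above 1 FPKM, in the order of replicates 1, 2 and 3 that is kept throughout. The lowest and the highest of these counts lie close together.

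The median of the loci at or above 1 FPKM was 12.7 FPKM. A level of at least 100 FPKM was reached by 1769 loci, which held 69.7% of the summed FPKM, and a level of at least 1000 FPKM by 92 loci, which held 27.1%. The 10 most abundant loci of a library held 8.91% ± 0.233 of its FPKM (SD, n = 3), the 100 most abundant 27.9% ± 0.551 and the 1000 most abundant 59.5% ± 0.706. The number of most abundant loci that together held 50% of the FPKM was 590, 541 and 546 in the 3 libraries, the largest number being that of replicate 1.

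**Figure D1:**
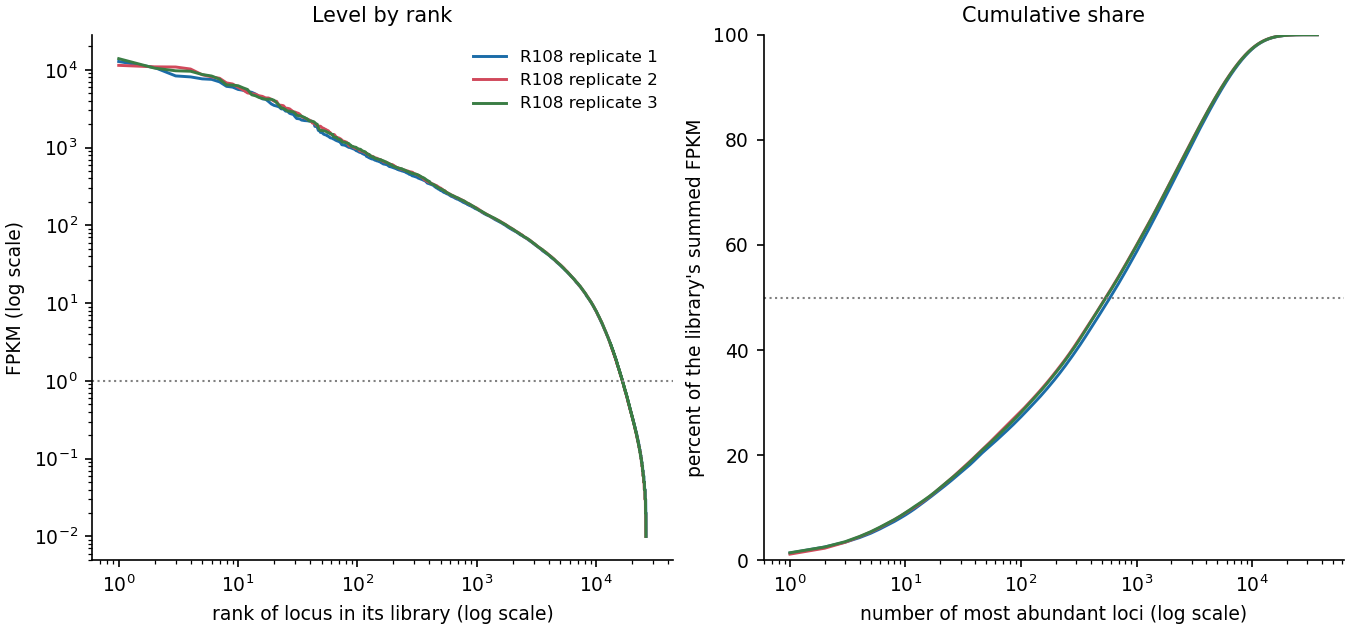
Left, FPKM of each locus (log scale) against its rank in its own library (log scale), with 1 line per R108 library and a dotted line at 1 FPKM; right, the percent of a library's summed FPKM held by its most abundant loci, with a dotted line at 50%. The 3 lines nearly coincide, and replicate 1 reaches 50% last, at 590 loci.

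The most abundant transcripts coded for a sugar-acid enzyme, LEA proteins, a defensin, a galactosyltransferase of raffinose sugars, a legumin and a caleosin. Medtr8g015220, described as myo-inositol oxygenase, which turns myo-inositol into glucuronate, a precursor of cell wall polysaccharides, had 12772, 11395 and 13902 FPKM. It ranked first in each library. The LEA locus Medtr4g120040 had 10676, 10908 and 10497 FPKM. All 3 of its values lay under the lowest value of Medtr8g015220, and its spread was the smaller of the pair. Medtr2g079440, described as the defensin MtDef1.1/MtDef1.2, a cysteine-rich antimicrobial peptide, had 7527, 10856 and 9704 FPKM, and Medtr1g033630, a hypothetical protein, had 8095, 10219 and 9572 FPKM. These ranges overlap, so their order by the mean (9362 and 9295 FPKM) is not larger than the spread between libraries, and both were lowest in replicate 1. The next place was that of Medtr7g091880, described as galactinol-raffinose galactosyltransferase, at 8381 ± 297 FPKM (SD, n = 3). That name is one for stachyose synthase, whereas the KEGG term of the locus in the deposited table is raffinose synthase, so which sugar it makes is not settled by its annotation.

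Of the 30 most abundant loci, 9 were LEA proteins, dehydrins or seed maturation proteins and held 5.24% of the FPKM, more than any other described group among them. Storage proteins gave 3 of the 30, carbohydrate enzymes 2, defence peptides 2, and oil body proteins, small heat shock proteins, proteases and translation factors 1 each. Another 7 had no informative description and held 3.57%. The ranking was alike in the 3 libraries: 28 loci stood among the 30 most abundant of every library and 90 among the 100 most abundant of every library.

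The undescribed loci Medtr4g083010 and Medtr2g022610 on this list had 4339 ± 469 FPKM and 2721 ± 407 FPKM, both lowest in replicate 1, and are taken up with the other undescribed loci. Medtr7g103520, named only as a plant T22K18-16 protein, had 2939.8, 2887 and 2937 FPKM, values that differ little, and Medtr5g020060, a plant MUD21-2 protein, had 2498, 3145 and 2877 FPKM. These names come from Arabidopsis clone labels and say nothing of a role. Below the first 30 places stood, in order, the galactinol synthase, the translationally-controlled tumor-like protein, a 2S albumin, the small hydrophilic seed protein and the LEA D-like locus Medtr1g081760 at 2368 ± 163 FPKM. Of the 100 most abundant loci, 17 were of the LEA group and held 6.47% of the FPKM, and storage proteins and the translation factors gave 7 each.

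**Figure D2:**
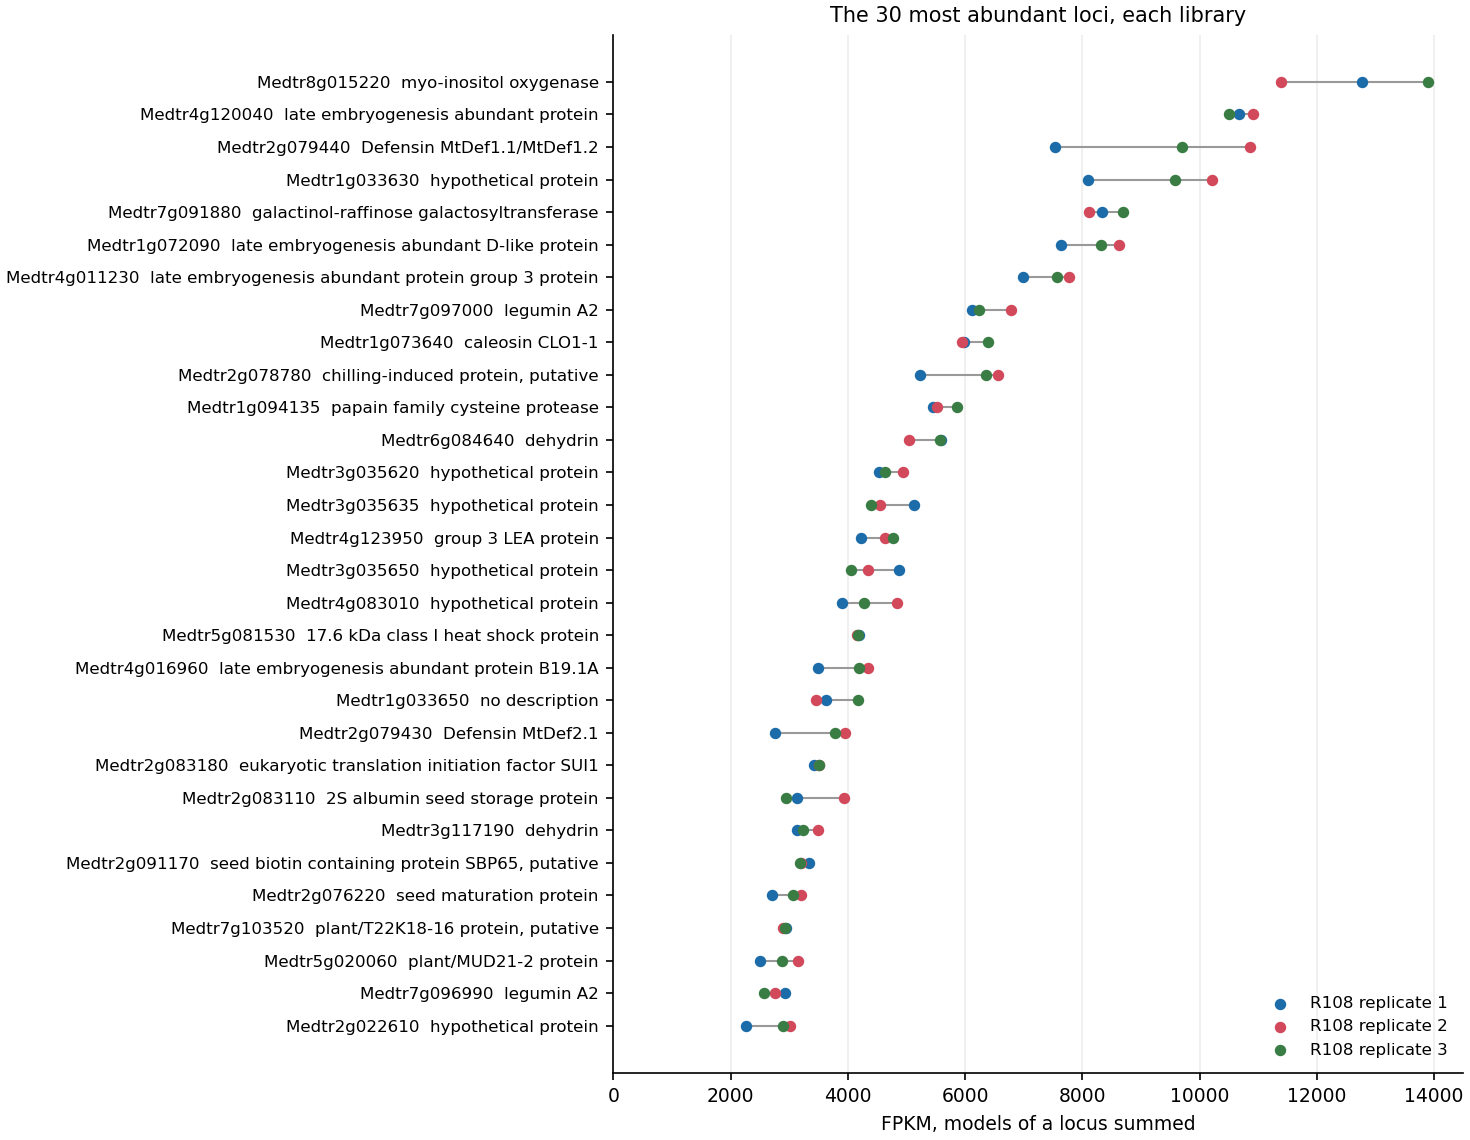
FPKM (x axis, linear, from 0) of the 30 most abundant loci, ordered by their mean, with 1 point for each R108 library and a grey line over their range. LEA proteins, storage proteins and undescribed loci fill most places, and the widest ranges belong to the first locus, myo-inositol oxygenase, and to the defensin MtDef1.1/MtDef1.2.

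By the words of their descriptions, ribosomal proteins and the LEA group held the largest shares among the described functions. Ribosomal proteins held 7.42% ± 0.165 of the FPKM (SD, n = 3) over 454 loci, and LEA proteins, dehydrins and seed maturation proteins held 7.22% ± 0.199 over only 101 loci. Per library these were 7.24%, 7.56% and 7.47% for the ribosomal proteins and 6.99%, 7.36% and 7.30% for the LEA group; the ribosomal share was the larger in each of the 3 libraries, by less than the range of either share over the libraries. The LEA group is 0.275% of all loci, and the oil body proteins, with 1.10% ± 0.0334 of the FPKM, are 0.0245%.

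RNA splicing, binding and processing proteins held 5.73% ± 0.200, and the ubiquitin, F-box and proteasome class 4.95% ± 0.0386. Carbohydrate and central carbon metabolism held 3.99% ± 0.206, of which 62.7% lay in 3 loci, myo-inositol oxygenase, the galactinol-raffinose galactosyltransferase and galactinol synthase. Translation factors and tRNA synthetases held 3.73% ± 0.0337, and seed storage proteins 2.15% ± 0.108. At the other end, the class matched to receptor kinases and NB-LRR immune receptors is 5.46% of the loci and held 0.418% ± 0.0176 of the FPKM. Nodule-specific genes held 0.0903% ± 0.0108. The receptor class also took in other loci, such as the F-box/LRR protein Medtr2g021030 at 166 ± 4.27 FPKM. The shorter lists of NB-LRR proteins and LRR receptor-like kinases held 0.0945% and 0.0967%. The receptor share rests on the order in which classes are matched: in reverse order, when other classes take loci first, it was 0.0270%. Described proteins outside these classes held 21.2% ± 0.141, and the 10504 loci with no informative description 15.3% ± 0.103.

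**Figure D3:**
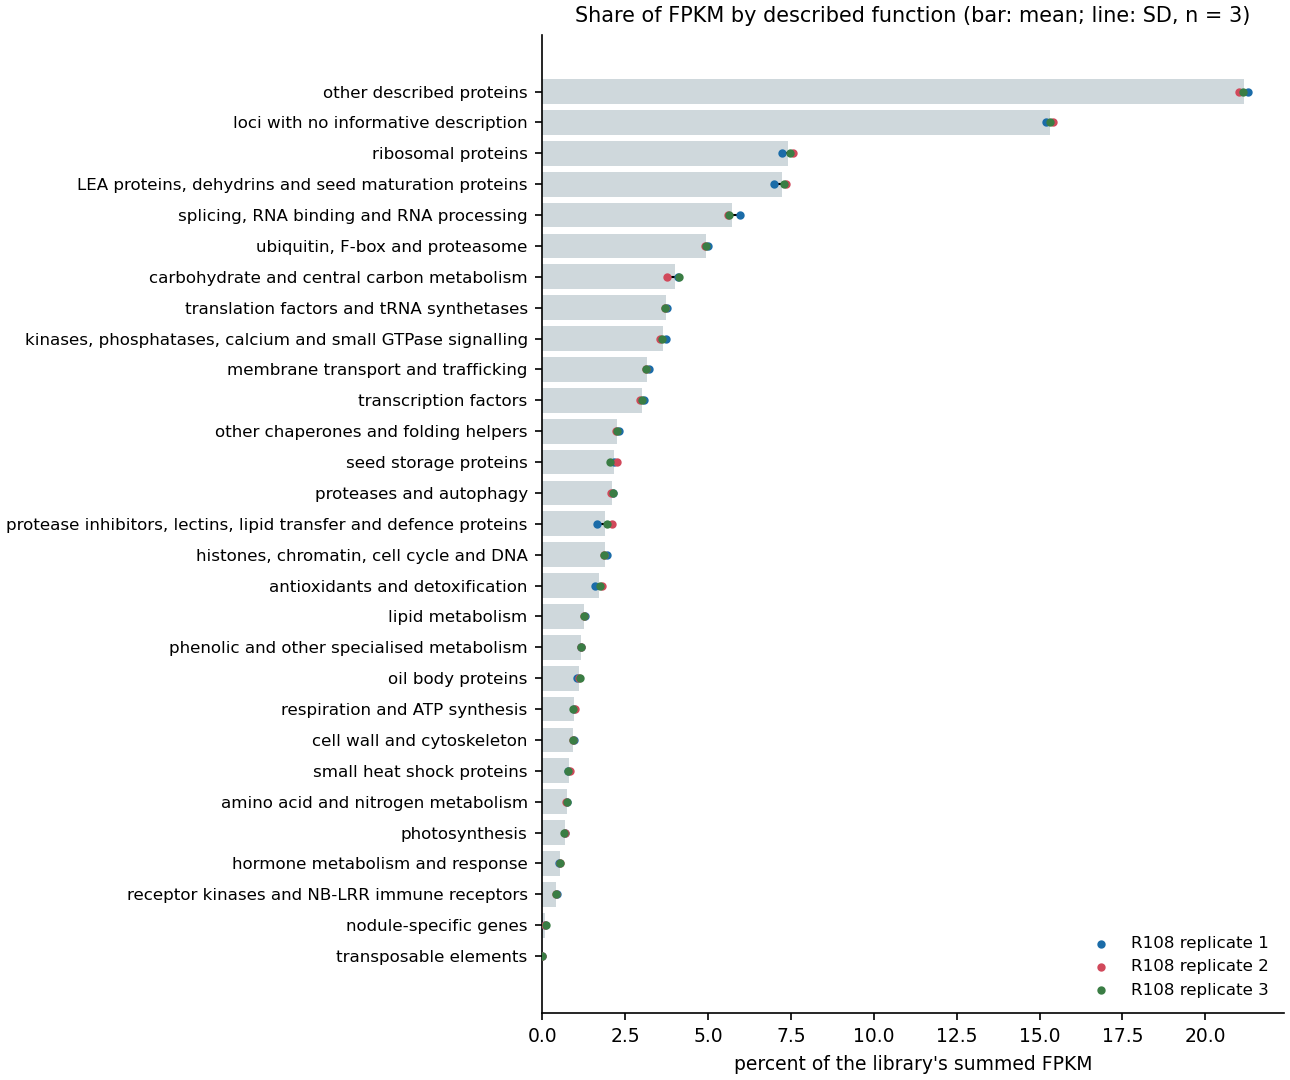
Share of a library's summed FPKM (x axis, percent) for each class of described function; bars are means of the 3 R108 libraries, lines are SD and points are the libraries. Ribosomal proteins and the LEA group lead the named functions at 7.42% and 7.22%, and the points of a class lie close together.

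Among loci described by these names, storage protein transcripts were concentrated in legumins and in the small 2S albumins, while vicilins lay lower. Legumins, the hexameric globulins, summed to 10696, 11406 and 10378 FPKM, 2S albumins to 5872, 7422 and 6104 FPKM and vicilins, the trimeric globulins, to 1592, 1358 and 1437 FPKM. In each library the order was legumins, 2S albumins, vicilins, and the sums did not overlap. The most abundant legumin was Medtr7g097000, described as legumin A2, with 6124, 6781 and 6235 FPKM, and its neighbour Medtr7g096990 had 2748 ± 177 FPKM. Of the 7 loci described as legumin or glycinin, 6 reached 100 FPKM and 1 was listed at 0.

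The 3 loci described as 2S albumin, sulphur-rich proteins of protein bodies, were all high. Medtr2g083110 had 3131, 3934 and 2944 FPKM, Medtr2g083130 2548 ± 343 FPKM and Medtr2g083160 582 ± 42.0 FPKM. The vicilins were uneven: Medtr1g103400 had 1193, 905 and 1034 FPKM, Medtr7g079770 had 303 ± 21.5 FPKM, Medtr7g079730 had 53.7 ± 4.48 FPKM, and the other 5 lay lower. The basic 7S globulin-like locus Medtr7g113790 had 1631 ± 52.8 FPKM. Albumin I and leginsulin peptides, the insect-toxic small albumins of legumes, were low: 3 of 17 reached 1 FPKM, led by Medtr3g067580 at 60.5 ± 11.7 FPKM. None of the 9 loci described as albumin-2 reached 1 FPKM, and 4 of them were listed at 0.

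Oil body proteins, which coat the lipid droplets of seeds, were few and abundant. Of 9 loci, 8 reached 1 FPKM. The caleosin Medtr1g073640, a calcium-binding oil body protein, had 5983, 5953 and 6388 FPKM and alone held 58.5% of the FPKM of the class. All 6 oleosins were found above 10 FPKM, and they spanned a wide range. Medtr6g005040 had 1521 ± 268 FPKM, Medtr3g109190 1147 ± 85.4 FPKM and Medtr7g033775 1145 ± 81.2 FPKM, of which the last pair did not differ beyond their spread. The lowest oleosin, Medtr4g111770, had 27.9 ± 5.30 FPKM. The caleosin Medtr1g032160 had 50.9 ± 3.61 FPKM, and the caleosin Medtr7g115490 was listed at 0 in every library.

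Genes of the raffinose family, whose sugars build up late in legume seeds, held 1.26% ± 0.0463 of the FPKM, nearly all of it in a pair of loci. Beside the galactosyltransferase Medtr7g091880 at 8381 FPKM, the galactinol synthase Medtr7g109920, which makes the galactosyl donor, had 2667, 2661 and 2762 FPKM. The raffinose synthase or seed inhibition protein Medtr4g105250 had 285 ± 4.10 FPKM, and 10 of 22 loci in all reached 1 FPKM. Alpha-galactosidases, which remove galactose from these sugars, were led by Medtr8g089745 with 548 ± 15.1 FPKM. For starch, the beta-amylases Medtr6g477780 and Medtr6g477770 had 492 ± 40.4 FPKM and 407 ± 19.9 FPKM. The sucrose-binding protein-like locus Medtr1g071710, of the vicilin-like family, had 1965 ± 180.4 FPKM. By its description it was counted with carbohydrate metabolism, so neither the vicilin sum nor the storage share includes it. In every library it stood above the summed loci described as vicilin.

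Of the 101 loci described as LEA proteins, dehydrins, seed maturation or embryonic abundant proteins, 57 reached 1 FPKM, 16 reached 1000 FPKM and 21 were listed at 0. The first 3 held 38.4% of the group's FPKM. Among the loci that reached 1 FPKM the median was 176 FPKM, against 12.7 FPKM over all such loci. LEA proteins are hydrophilic and are thought to protect membranes and proteins in the dry state. After Medtr4g120040, the LEA D-like locus Medtr1g072090 had 7638, 8633 and 8313 FPKM. The group 3 LEA loci Medtr4g011230 and Medtr4g123950 had 7442 ± 408 FPKM and 4543 ± 285 FPKM. Replicate 1 was the lowest library for these 3 loci.

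All 4 dehydrins, LEA proteins with a lysine-rich repeat, were found, and they ranged widely. Medtr6g084640 had 5588, 5039 and 5576 FPKM, Medtr3g117190 had 3291 ± 182 FPKM, Medtr8g106140 had 541 ± 101 FPKM and Medtr3g117290 only 23.5 ± 2.71 FPKM. The first stands above the second in every library. The LEA B19.1A locus Medtr4g016960, of the Em type, had 4004 ± 457 FPKM, and the seed biotin-containing protein SBP65, Medtr2g091170, had 3239 ± 88.9 FPKM. Of 12 seed maturation proteins 11 reached 1 FPKM. The highest, Medtr2g076220, had 2993 ± 263 FPKM, and the neighbours Medtr7g093160 and Medtr7g093170 had 1671 ± 302 FPKM and 1281 ± 204 FPKM.

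Transcripts whose descriptions name seeds or cold but not these families also stood high. The chilling-induced protein Medtr2g078780 had 5235, 6565 and 6349 FPKM, lowest in replicate 1. Medtr7g069250, a small hydrophilic plant seed protein, had 2429 ± 164 FPKM. Its description lies outside the words used for the LEA group, and adding it while leaving out the embryonic abundant loci would move the group's share from 7.22% to 7.41%.

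Small heat shock proteins, chaperones that bind unfolding proteins, held 0.807% ± 0.0363 of the FPKM, of which 54.3% came from a single class I locus. That locus, Medtr5g081530, a 17.6 kDa class I protein, had 4183, 4158 and 4174 FPKM. Its SD of 12.8 FPKM is small beside its mean. All 11 class I loci and all 4 cytosolic class II loci reached 1 FPKM. The second class I locus, Medtr6g061850, had 501 ± 110.1 FPKM, and the highest class II locus, Medtr3g104780, had 679, 895 and 761 FPKM. In the whole class 38 of 54 loci reached 1 FPKM and 2 were listed at 0.

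Other chaperones were spread over more loci. HSP70 proteins had 18 of 70 loci at 1 FPKM, led by Medtr4g130540 at 722 ± 7.74 FPKM, while 28 were listed at 0. Of all loci, 45.1% reached 1 FPKM and 18.6% were listed at 0. All 7 HSP90 loci reached 1 FPKM, with Medtr5g096460 at 484 ± 27.4 FPKM. ClpB, the disaggregase, was led by Medtr4g109450 at 319 ± 19.7 FPKM, and of 117 DnaJ co-chaperones 92 reached 1 FPKM, led by Medtr8g006430 at 974 ± 32.0 FPKM.

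Defence peptides were dominated by a pair of neighbouring defensins that differed between libraries. The class of protease inhibitors, lectins, lipid transfer and defence proteins held 1.64%, 2.10% and 1.97% of the FPKM, lowest in replicate 1, and 51.7% of it was the defensin Medtr2g079440. The neighbouring defensin Medtr2g079430, MtDef2.1, had 2759, 3951 and 3774 FPKM and was also lowest in replicate 1. Of 29 defensins, 7 reached 1 FPKM and 10 were listed at 0. The cystatin Medtr8g041410, which inhibits papain-type proteases, had 738 ± 43.6 FPKM. Trypsin inhibitors, prominent proteins of many legume seeds, lay lower as transcripts: 9 of 31 reached 1 FPKM, and the highest, the Bowman-Birk locus Medtr7g077340, had 144 ± 9.32 FPKM.

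Among antioxidant and detoxification genes the glutathione S-transferase Medtr5g090910 had 1485 ± 185 FPKM, and 46 of 77 such loci reached 1 FPKM. The EC metallothionein Medtr7g053460, a zinc-binding protein of the type first known from wheat embryos, had 1029, 1735 and 1376 FPKM, again lowest in replicate 1. The catalase Medtr3g115370 had 698 ± 48.6 FPKM. All 6 peroxiredoxins reached 10 FPKM, and the seed-type 1-Cys peroxiredoxin PER1 was highest at Medtr4g094720 with 251 ± 32.1 FPKM.

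The machinery for making protein was broadly present. Of 216 cytosolic ribosomal protein loci, 179 reached 1 FPKM and 165 reached 10 FPKM, and the highest, Medtr1g087910 for L19, had 1122 ± 51.5 FPKM, only 2.28% of the list's 5.18%. Ribosomal proteins of organelle type had 107 of 114 loci at 1 FPKM. Translation factors were more uneven. The initiation factors SUI1, which help to find the start codon, stood out: Medtr2g083180 had 3416, 3512 and 3505 FPKM and Medtr3g051950 had 2111 ± 249.9 FPKM. The initiation factor 5 locus Medtr7g082940 had 2103 ± 43.3 FPKM, and the elongation factor EF-2 locus Medtr1g048000 had 1458 ± 27.6 FPKM. Medtr2g436620, described as translationally-controlled tumor-like protein, had 2569 ± 224 FPKM.

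Loci used as reference genes differed widely in level. Those described as elongation factor 1-alpha were led by Medtr5g037350 at 37.1 ± 1.54 FPKM, but Medtr6g021805, described as a GTP-binding elongation factor Tu family protein and given the KEGG term elongation factor 1-alpha in the deposited table, had 1367, 1357 and 1366 FPKM. The highest actin, Medtr2g008050, had 246 ± 4.78 FPKM, the highest glyceraldehyde-3-phosphate dehydrogenase, Medtr4g103920, 223 ± 16.9 FPKM, and the highest tubulin, Medtr1g105970, 211 ± 7.03 FPKM. Polyubiquitin was led by Medtr8g018230 at 873 ± 29.9 FPKM and the peptidyl-prolyl isomerases, which include cyclophilins, by Medtr4g075290 at 476 ± 28.6 FPKM.

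Proteases were led by few loci. The papain family cysteine protease Medtr1g094135 had 5450.0, 5512 and 5861 FPKM and the vacuolar processing enzyme Medtr4g101730, the type that cleaves storage protein precursors, had 2113, 2169 and 2196 FPKM. The cathepsin B-like protease Medtr7g111060 had 1077 ± 102 FPKM, and these 3 held 44.2% of the class. Proteasome subunits were broadly present, with 53 of 69 loci at 10 FPKM. F-box proteins, which pick targets for ubiquitin, had 307 of 947 loci at 1 FPKM and 218 at 0, against 45.1% and 18.6% of all loci. In the ubiquitin class the RING finger locus Medtr3g108240 had 2317 ± 114 FPKM.

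RNA-binding and processing proteins were spread over many loci. Within the class as matched they were led by Medtr4g070080, an RNA-binding protein, at 1054 ± 80.7 FPKM, the DEAD-box helicase Medtr6g056080 at 925 ± 81.2 FPKM and Medtr4g074930, with an RNA recognition motif, at 896 ± 52.4 FPKM. The RNA-binding protein RBP47B, Medtr2g022950, described as polyadenylate-binding and therefore matched to translation factors, stood higher at 1316 ± 16.5 FPKM. Only 105 of 1651 loci of the class were listed at 0. Pentatricopeptide repeat proteins, which edit and process organelle RNA, had 419 of 670 loci at 1 FPKM, the highest at 92.9 FPKM (Medtr5g042450).

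Of the glyoxylate cycle, which turns stored oil into sugar after germination, the transcripts were unequal. Glyoxysomal malate synthase, Medtr8g028225, had 1649, 1884 and 1656 FPKM, and isocitrate lyase, Medtr4g046757, had 21.3, 19.9 and 22.1 FPKM. Each is the only locus with that description, and every malate synthase value lay far above every isocitrate lyase value. Phosphoenolpyruvate carboxykinase, a later step toward sugar, was highest at Medtr5g430730 with 25.3 ± 3.82 FPKM. Fermentation genes were modest, with pyruvate decarboxylase Medtr2g015560 at 33.4 ± 1.23 FPKM. Among respiratory genes the NADH:ubiquinone oxidoreductase locus Medtr3g104310 had 914 ± 80.0 FPKM, and the alternative oxidase Medtr4g094222 had 47.4 ± 3.51 FPKM. Medtr6g069040 and Medtr1g077540, described as major intrinsic proteins, the family of the aquaporin water channels, had 1621 ± 75.3 FPKM and 1612 ± 49.6 FPKM and did not differ beyond their spread, and 20 of 39 reached 1 FPKM.

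Amino acid metabolism held 0.740% ± 0.0106 of the FPKM and lipid metabolism 1.26% ± 0.0175. The S-adenosylmethionine synthase-like locus Medtr7g110310, which makes the methyl donor of most methylation reactions, had 1031, 1118 and 1078 FPKM. S-adenosylhomocysteine hydrolase, Medtr8g083090, which clears the product of those reactions, had 406 ± 1.78 FPKM, and glutamine synthetase, Medtr6g071070, which takes up ammonium, had 932 ± 45.7 FPKM. No locus of lipid metabolism reached 1000 FPKM. The highest, Medtr1g078030, a START domain lipid-binding protein, had 405 ± 13.4 FPKM, and digalactosyldiacylglycerol synthase, Medtr7g106250, which makes a galactolipid of plastid membranes, had 262 ± 11.6 FPKM. Lipoxygenases, which oxidise polyunsaturated fatty acids, had 3 of 31 loci at 1 FPKM, led by the seed 9S-lipoxygenase Medtr2g099560 at 41.5 ± 3.36 FPKM.

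Signalling, wall and specialised metabolism classes were large and had no locus at 1000 FPKM. Kinases, phosphatases, calcium and small GTPase proteins held 3.63% ± 0.0895 of the FPKM with 993 of 1789 loci at 1 FPKM. They were led by Medtr8g066090, a phosphatidylinositol 3- and 4-kinase family protein, at 599 ± 6.08 FPKM, the Ran GTPase-like Medtr3g107717, of nuclear transport, at 529 ± 53.1 FPKM, and Medtr2g103910, a gamma subunit of the energy-sensing AMP-activated kinase, at 489.8 ± 41.3 FPKM. The last pair did not differ beyond their spread. Cell wall and cytoskeleton loci held 0.930% ± 0.0178, with 342 of 891 at 1 FPKM, led by the glycoside hydrolase family 1 locus Medtr0110s0040 at 935 ± 60.2 FPKM. Phenolic and other specialised metabolism held 1.17% ± 0.00830, with 368 of 1016 at 1 FPKM. Its highest locus, the cytochrome P450 Medtr8g098565, had 686 ± 13.2 FPKM, and of all 322 P450 loci 43 reached 10 FPKM.

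Chromatin, cell cycle and DNA proteins held 1.90% ± 0.0416 of the FPKM. The HMG-box protein Medtr8g073345, which bends DNA, had 1064, 990.4 and 1153 FPKM, and the telomere stability/silencing protein Medtr7g117320 had 701 ± 24.8 FPKM. Transposable elements were few and low: of 19 loci with such a description, 2 reached 1 FPKM, the highest being the Ty3/Gypsy locus Medtr0058s0020 at 2.72 ± 1.35 FPKM.

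Transcription factors held 3.07%, 2.94% and 2.99% of the FPKM in the 3 libraries. Of their 1837 loci, 837 reached 1 FPKM, a share of 45.6%, close to the 45.1% of all loci. Within this class, set by words in the descriptions, the highest were Medtr4g071000, described as BTF3b-like, at 803 ± 40.7 FPKM and the CCCH zinc finger locus Medtr4g094292 at 802 ± 36.7 FPKM, which did not differ beyond their spread. The words leave out Medtr3g115170, described only as a transcription activator-like protein, which had 1173, 1473 and 1514 FPKM and stood above every locus of the class. The ethylene response factor Medtr3g102100 had 471 ± 48.7 FPKM. Heat shock transcription factors, which switch on heat shock protein genes, had 18 of 26 loci at 1 FPKM. They were led by Medtr1g100777, described as B2A, with 348, 367 and 343 FPKM, Medtr0020s0020, also B2A, with 204 ± 18.9 FPKM, and Medtr4g077970, described as A3, with 92.9 ± 5.09 FPKM. No description names HSFA9, the gene that the mutant lines of the series carry insertions in, so its level is not given.

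Among loci whose descriptions name a regulator of seed maturation or abscisic acid, Medtr8g010170, an ABI3-interacting protein, had 256, 261 and 263 FPKM and Medtr8g010160, of the same description, 13.4 ± 1.37 FPKM. The ninja-family proteins, the family of the ABI5-binding proteins of Arabidopsis, were Medtr8g012620 at 104 ± 21.7 FPKM, Medtr6g087140 at 60.8 ± 1.53 FPKM, Medtr3g025970 at 57.7 ± 7.13 FPKM and Medtr5g045370 at 4.68 ± 0.487 FPKM. Loci described as seed dormancy control protein were near 0, the highest being Medtr2g016330 at 0.653 ± 0.214 FPKM. No description names ABI3, ABI5, LEC1, LEC2 or FUS3 themselves. bZIP factors had 50 of 75 loci at 1 FPKM, led by Medtr7g104190 at 252 ± 8.28 FPKM, B3 domain factors 22 of 54, led by Medtr7g059330 at 191 ± 6.13 FPKM, and NF-Y factors 19 of 29, led by Medtr1g082660 at 159 ± 12.5 FPKM. WRKY factors had 31 of 84 and MADS-box factors, which include the organ identity genes of flowers, only 6 of 78, the highest Medtr3g102570 at 29.9 ± 2.98 FPKM.

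Among gibberellin genes, 1 inactivating enzyme held most of the FPKM of its list, and the loci described as the last enzymes of synthesis lay under 1 FPKM. The gibberellin 2-oxidase Medtr2g070870, which inactivates gibberellin, had 271, 279.9 and 313 FPKM, 76.6% of the summed FPKM of gibberellin 2-oxidases, of which 6 of 25 reached 1 FPKM and 8 were listed at 0. None of the 8 loci described as gibberellin 20-oxidase or 3-oxidase reached 1 FPKM, the highest being Medtr8g033380 at 0.537 ± 0.338 FPKM. The gibberellin-regulated family locus Medtr4g106860 had 1093 ± 109 FPKM, and the gibberellin receptor GID1c-like locus Medtr1g089310 had 195 ± 5.72 FPKM. For abscisic acid, the single 9-cis-epoxycarotenoid dioxygenase, Medtr2g070460, a step of its synthesis, had 1.66, 1.23 and 2.03 FPKM, the receptor PYL9-like Medtr3g090980 had 48.7 ± 2.63 FPKM, and 42 of 59 protein phosphatase 2C loci reached 1 FPKM. SAUR auxin-responsive genes were low, 19 of 71 at 1 FPKM with the highest at 12.7 FPKM (Medtr3g110032).

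**Figure D4:**
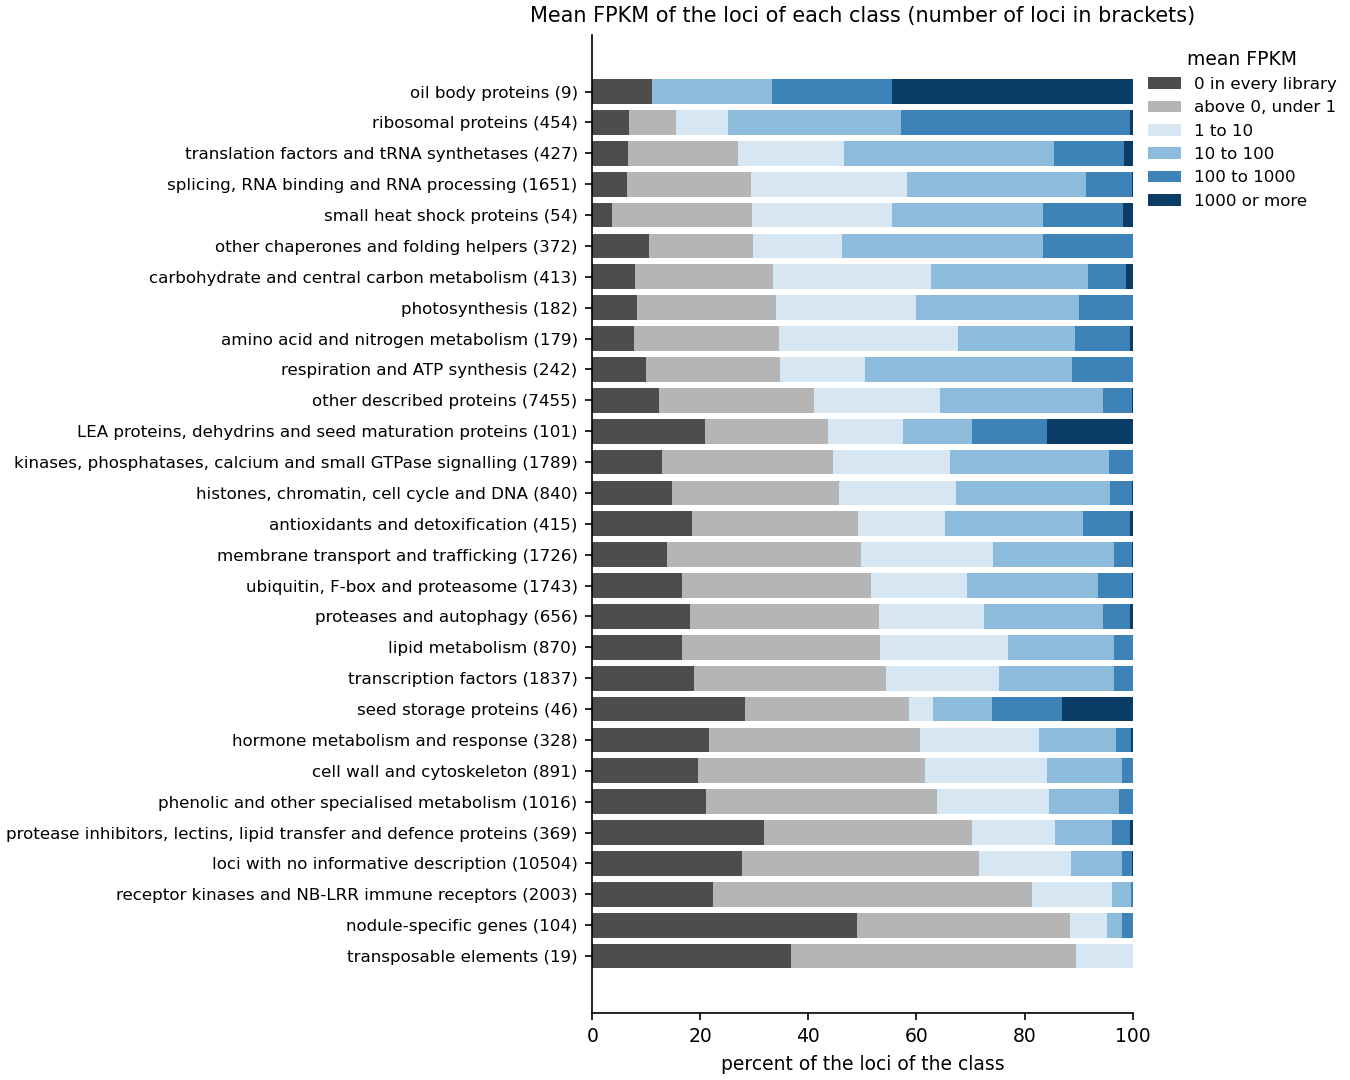
For each class of described function, the percent of its loci (x axis) that fall in each range of mean FPKM over the 3 R108 libraries; brackets give the number of loci. Oil body and ribosomal proteins have the largest percent of loci at or above 1 FPKM. Storage and LEA proteins, like several other classes, have loci both at 0 and above 1000 FPKM. Nodule-specific genes have 49.0% of their loci at 0.

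The label of mature seeds was set against marker lists. Storage, oil body and LEA loci stood among the most abundant. Of all loci 45.1% reached 1 FPKM, against 41.3% of storage, 56.4% of LEA and 88.9% of oil body loci. Nodule, seed coat flavonoid and wall-loosening lists had smaller shares than all loci. The replication list, with 5 of 12, had a share close to that of all loci. Histones, cyclins, photosystem subunits and alpha-galactosidases had larger ones. Nodule cysteine-rich peptides, made in root nodules to steer the bacterial partner, had 5 of 63 loci at 1 FPKM and 36 listed at 0, the highest being Medtr7g021640 at 48.7 ± 2.08 FPKM. Of the leghemoglobins, the oxygen carriers of nodules, 1 of 8 reached 1 FPKM, namely Medtr5g080440 at 5.90 ± 1.36 FPKM. A pair of loci described as nodule-specific glycine-rich peptides went against this pattern: Medtr5g084320 had 618, 542 and 709.5 FPKM and Medtr5g084270 126 ± 28.6 FPKM, and the 3 highest loci, these and the cysteine-rich peptide, hold 92.9% of the class. The short lists of flavonoid and lignin genes, many of them used in the seed coat, were low. They hold only chalcone synthases, anthocyanidin and leucoanthocyanidin reductases, phenylalanine ammonia-lyases and laccases, not the whole pathways. None of the 18 chalcone synthase family loci reached 1 FPKM, the highest being Medtr3g086260 at 0.383 ± 0.162 FPKM. The anthocyanidin reductase Medtr4g092080, which feeds seed coat tannins, had 0.220, 0.440 and 0.330 FPKM, and phenylalanine ammonia-lyase was highest at Medtr1g064090 with 3.66 ± 0.484 FPKM. Laccases, of lignified walls, had 1 of 9 loci at 1 FPKM, Medtr7g065980 at 28.4 ± 2.54 FPKM. Cellulose synthases, the other list set for lignified tissue, were not as low, with 19 of 46 loci at 1 FPKM and 2 at 100 FPKM.

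Endo-beta-mannanases, which soften the endosperm, had 3 of 12 loci at 1 FPKM, the highest Medtr8g005670 at 5.19 ± 0.791 FPKM. Alpha-galactosidases, the other endosperm list, went the other way, with 10 of 17 loci at 1 FPKM and 2 at 100 FPKM. Expansins, which loosen walls as seedlings grow, had 6 of 32 loci at 1 FPKM, the highest Medtr1g026020 at 88.6 ± 4.61 FPKM. The other seedling markers, malate synthase and isocitrate lyase, had 1729 ± 133 FPKM and 21.1 ± 1.09 FPKM, so malate synthase was high. Replication genes were low in level, though 5 of 12 MCM and PCNA loci reached 1 FPKM, close to the 45.1% of all loci. None reached 10 FPKM, against 24.9% of all loci, and the highest, Medtr7g100680 for MCM8, had 3.50 ± 0.336 FPKM. Histones were not low as a whole, with 38 of 75 loci at 1 FPKM, and the histone H2A locus Medtr2g082510 had 366 ± 24.7 FPKM. Cyclins and cyclin-dependent kinases had 43 of 60 loci at 1 FPKM, led by the kinase Medtr5g026960 at 642 ± 22.3 FPKM.

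Green tissue genes were present at uneven levels. The light-harvesting complex I protein Medtr5g098780 had 528, 648 and 605 FPKM, and 15 of 29 light-harvesting loci reached 1 FPKM and 6 reached 10 FPKM. Photosystem subunits were found more broadly, 47 of 72 loci at 1 FPKM and 32 at 10 FPKM, and summed to 2159, 2165 and 1977 FPKM. The highest was Medtr4g051370, described as the photosystem II protein CP47, a protein coded in the plastid genome, with 249 ± 32.8 FPKM. The RuBisCO small chain loci Medtr6g018310 and Medtr6g018300 had 469 ± 42.8 FPKM and 121 ± 10.7 FPKM, and the other RuBisCO small chain loci lay under 1 FPKM. Immune receptors were numerous and low, with 135 of 860 NB-LRR loci at 1 FPKM and 15 at 10 FPKM, the highest Medtr0133s0020 at 73.8 ± 3.41 FPKM. Chitinases had 7 of 30, led by the class Ib locus Medtr8g074330 at 526 ± 21.8 FPKM, and pollen or anther proteins 16 of 40, led by Medtr3g073990 at 275 ± 32.9 FPKM. Of all loci, 45.1% reached 1 FPKM. Values at or near 0 are limits of this depth. Reads per locus are not known from FPKM, and a locus listed at 0 may also be one whose reads were assigned to a near-identical copy. The line behind the gene models is not given either. A locus that R108 lacks, or carries in a diverged form, cannot be told apart from one that is not expressed.

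**Figure D5:**
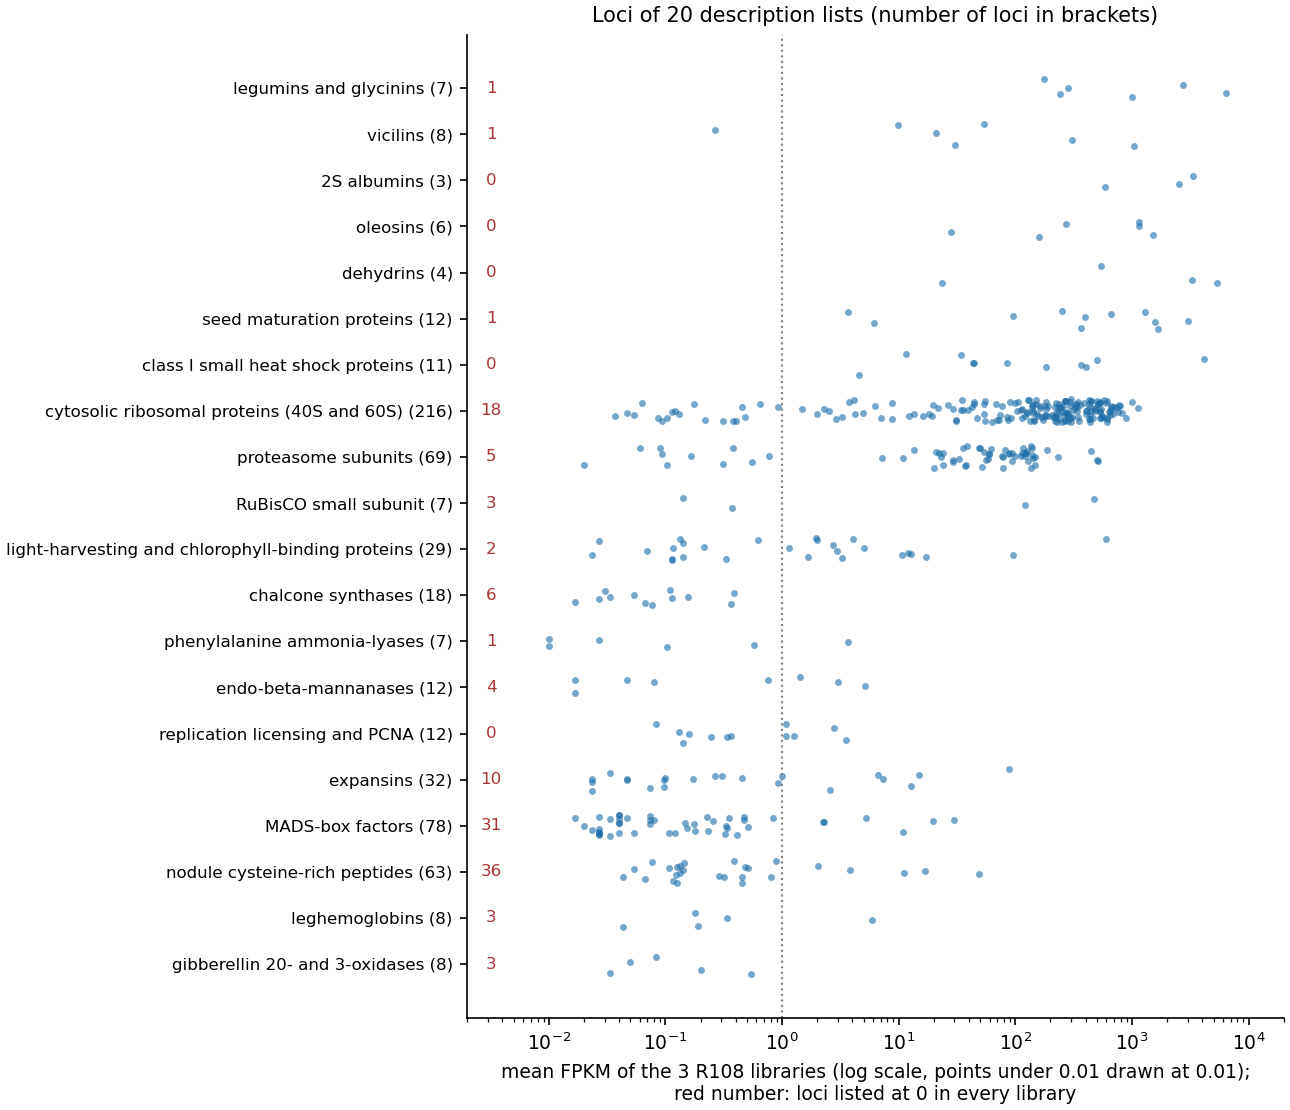
Mean FPKM over the 3 R108 libraries (x axis, log scale) of each locus in 20 lists of loci defined by their descriptions; brackets give the number of loci, red numbers those listed at 0 in every library, and the dotted line marks 1 FPKM. Legumin, vicilin, 2S albumin, dehydrin, oleosin and class I small heat shock loci lie mostly to the right of the line, and chalcone synthases and gibberellin 20- and 3-oxidases wholly to the left of it.

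Loci with no informative description made up 23 of the 100 most abundant loci and 6.04% of the FPKM within them. Over all loci 2990 of 10504 such loci reached 1 FPKM, a share of 28.5%, against 45.1% for the whole table. Those with neither an ontology nor a KEGG term numbered 5254 and held 8.23% of the FPKM. Several stood side by side. Locus identifiers carry the chromosome and increase along it, and between Medtr1g033630 and Medtr1g033730 on chromosome 1 all 9 loci were undescribed, 5 were among the 100 most abundant and together they summed to 17009, 19141 and 19369.5 FPKM, or 1.95% ± 0.0899 of the total. Beside Medtr1g033630 these include Medtr1g033650 at 3752 ± 376 FPKM and Medtr1g033700 at 2317 ± 24.5 FPKM, while Medtr1g033640 between them was listed at 0.

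A second run lay on chromosome 3. Medtr3g035620 had 4526, 4935 and 4628 FPKM, Medtr3g035635 had 5134, 4545 and 4399 FPKM and Medtr3g035650 had 4878, 4339 and 4053 FPKM. With Medtr3g035630 these 4 neighbouring undescribed loci held 1.58% ± 0.120 of the FPKM. The loci on either side of them are described as plastid genes: Medtr3g035600, photosystem I P700 apoprotein A2, had 75.9 ± 11.5 FPKM, Medtr3g035610, ribosomal protein S14, had 25.9 ± 4.83 FPKM, and Medtr3g035685, maturase K, had 126 ± 19.1 FPKM. Reads from the plastid genome and from a nuclear copy of it cannot be told apart in these values, and whether the undescribed loci hold plastid or ribosomal RNA sequence was not tested. Medtr4g006040, described as ycf68, another plastid reading frame, had 1688 ± 157 FPKM.

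In all, 22 of the 100 most abundant loci lay in 8 runs, each with at most 5 places in locus order from one such locus to the next. Beside the undescribed runs they held the defensins Medtr2g079430 and Medtr2g079440, the 2S albumins Medtr2g083110 and Medtr2g083130 with the SUI1 locus Medtr2g083180, the legumins Medtr7g096990 and Medtr7g097000 and the seed maturation proteins Medtr7g093160 and Medtr7g093170. By chromosome, the share of FPKM ran from 4.70% ± 0.0361 on chromosome 6, with 2542 loci, to 18.7% ± 0.0467 on chromosome 4, with 5532. Loci at 1 FPKM made up 37.5% of those on chromosome 6 and 49.1% of those on chromosome 4.

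The 3 libraries were close to each other over most loci. The median SD of log2(FPKM + 1) was 0.11 over the 16564 loci with a mean of at least 1 FPKM, and the median coefficient of variation fell from 13.7% at 1 to 10 FPKM to 6.16% at 10 to 100 FPKM and 5.26% at 100 to 1000 FPKM. It was 7.55% for the 92 loci at or above 1000 FPKM. Replicate 1 was the lowest library for 64.1% of these most abundant loci and for 33.3% of the loci at 1 to 10 FPKM. Its summed FPKM was 922801, against 966809.6 and 962362 in replicates 2 and 3. Relative depth, read from the low FPKM values that libraries share, was 1.01 for replicate 2 and 0.994 for replicate 3, with replicate 1 set to 1. On simulated data a true ratio of 1.2 also came back as 0.994, so this estimate cannot tell equal depth from a difference of that size. What makes replicate 1 lower at the top was not tested.

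A difference of more than 2 times between the lowest and the highest library was found for 19 of the 9145 loci at or above 10 FPKM and for none at or above 100 FPKM. The most variable was Medtr5g049270, described as plant/MWL2-17 protein, with 0, 18.3 and 16.5 FPKM. Its neighbour of the same description, Medtr5g049260, had 38.3, 18.3 and 16.5 FPKM, the same value in replicates 2 and 3, and the pair together had 38.3, 36.5 and 33 FPKM, so their sum varied little. The hypothetical protein Medtr7g089250 had 1.05, 20.8 and 19.6 FPKM, the 40S ribosomal S9-like locus Medtr3g005430 had 9.33, 10.5 and 39.2 FPKM and the MatK/TrnK locus Medtr7g117940 had 9.71, 10.9 and 31.4 FPKM. In these 3 loci a single library stood apart. The kinase locus Medtr0283s0050, WNK11-like, had 15.7, 41.4 and 31.4 FPKM. Identical values in all 3 libraries were found in 83 groups of loci with a mean of at least 1 FPKM, 170 loci in all with 0.451% of the FPKM, among them the 40S ribosomal S20-2 loci Medtr1g091057 and Medtr2g085090 at 149 FPKM each. The level of a single member of such a pair is uncertain.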

How the data were processed

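RNA of 3 R108 mature seed libraries was used, and 6 columns of FPKM from the other genotypes were not. The authors deposited 42631 transcript models with an FPKM value per library, written to 2 decimals. HISAT, HISAT2, Bowtie2 and RSEM appear in the submitters' processing notes, with no role given, and the genome build and annotation are those of the authors, not given in the sources used here. From these, FPKM was summed per locus, and each locus took the description of its most abundant model, as deposited. Loci were put in 28 classes and 95 shorter lists by words in the descriptions, the first matching class being taken. The members, classes and lists were chosen with earlier results of these data known, and the shorter lists after the ranking had been seen. Loci named are the 30 most abundant, the 3 most abundant of a class, the most abundant member of a list described as low, seed regulators at or above 1 FPKM, the 5 most variable loci at or above 10 FPKM and the most abundant reference genes, drawn from rather than listed in full; others were chosen after their values were seen. Values are means ± SD over the 3 libraries, each from separate plants per the labels, with no test, since no groups were compared. The number of reads per locus is unknown, so no counting intervals are given. Relative depth was the mode of FPKM ratios of models between 0.5 and 5 FPKM in both libraries, and it was tested on simulated data: true ratios of 0.9, 1 and 1.1 came back as 0.899, 1.01 and 1.10, but 1.2 came back as 0.994, so a larger difference in depth could be missed. Of 42521 models with a protein accession, 20349 matched a RefSeq gene table of another line, A17, which was not used for names or positions. Alternatives were other thresholds, single models, other totals, other class orders and leaving out each library. Python 3.11.15, pandas 2.3.3, numpy 2.4.6 and matplotlib 3.10.9 were used.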

Additional observations from a re-analysis of the deposited data

How the results depend on the processing

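The number of loci at or above 1 FPKM, 16564, became 24224 at 0.1 FPKM, 11504 at 5 FPKM, 15686 when every library had to reach 1 FPKM, and 16549 to 16572 without one library. Loci at 0 numbered 8164 to 8289 without one library, since fewer libraries have to be at 0, and 7876 with values under 0.05 counted as 0. Leaving undescribed loci out of the total raised every other class, to 2.54% for seed storage proteins, 8.52% for the LEA group, 1.30% for oil body proteins, 0.953% for small heat shock proteins and 8.76% for ribosomal proteins. Leaving out the 10 most abundant loci gave 1.63%, 4.88%, 0.499%, 0.886% and 8.15% in the same order, as those 10 hold members of the first 3. With a single model per locus the oil body share was 1.13%, and in reverse class order the small heat shock share was 0.00510%, because the other chaperone class then takes them. Without the chromosome 3 undescribed run, an alternative chosen after seeing the data, the 100 most abundant loci held 27.2%. The other alternatives moved these shares by less than the spread between libraries, and without one library they ran from 2.10% to 2.21% for storage, 7.14% to 7.33% for LEA and 7.35% to 7.51% for ribosomal proteins. The median SD of log2 values was 0.12 with a pseudocount of 0.1, 0.084 with no filter, and 0.0775 to 0.0901 without one library, each then being the SD of 2 libraries. No paired analysis was possible because no groups were compared. Values of 1 to 10 FPKM had the largest relative spread, and the depth behind a value at 0 is unknown.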
